A study of Mus musculus with 6 samples.

Results

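The genes described here are 47 symbols of the interferon and nucleic acid sensing pathway, listed as sensors of nucleic acids, receptors and transcription factors of interferon signaling, and genes stimulated by interferon. Of these, 46 have a row in the deposited table of 21269 genes, and 45 reached the mean normalized count of 5 that was set for testing. *Tlr9*, the endosomal receptor for unmethylated DNA, is not analysed here, and *Zbp1*, a sensor of left-handed nucleic acids, was too low to test. The members were measured in HL-1 cells, a contractile line derived from mouse atrial cardiomyocytes, after depletion of the long noncoding RNA Malat1. Cells were kept in Claycomb medium with serum and norepinephrine, seeded 24 hours ahead, transfected with 50 nM of a locked nucleic acid gapmer by means of RNAimax, and harvested 48 hours later. Gapmers are short oligonucleotides whose ends are chemically modified, and RNase H cuts the RNA with which they pair. The 3 libraries named LNA Malat1 came from cells given the Malat1 gapmer and the 3 named LNA Control from cells given a control gapmer (ctrl2). Every library came from transfected cells, and untransfected cells were not analysed here. No source states whether the libraries of a group came from separate cultures, so p-values measure only the spread between these libraries.

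In this pathway, RNA in the cytosol is bound by the RIG-I-like receptors, which signal through the mitochondrial adaptor MAVS to IRF3 and IRF7, the factors that switch on type I interferon genes. Secreted interferon binds the IFNAR1 and IFNAR2 receptor, whose kinases JAK1 and TYK2 activate STAT2 and other factors. Together with IRF9, STAT2 is part of the complex ISGF3, which binds the interferon-stimulated response element (ISRE) in promoters of interferon-stimulated genes. A different element, the gamma-activated site (GAS), is known from the response to interferon gamma. The induced genes encode proteins that bind viral RNA, degrade RNA, edit RNA, or load peptides on MHC class I, and in cardiomyocytes as in other cells many of them are expressed at a basal level without infection.

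The ISRE is the textbook element of interferon-stimulated promoters, and it was searched in the RefSeq promoter windows of the build GRCm38.p6 (mm10), which run from 250 bases before to 50 bases after each annotated start. A window was found for 37 of the 47 symbols. The ISRE, spelled as GAAA, any 2 bases, and GAAA and read on both strands with overlapping matches allowed, occurred in 12 of the 37 members (32.4%), compared with 3.44% of the 32851 windows and 3.99% of all genes with a window. The GAS, spelled TTCNNNGAA, occurred in 13 members (35.1%), compared with 8.3% of windows and 9.55% of genes. These matches are letters in a window and no evidence of binding. The stretches printed here are those of the antiviral effectors and of *Isg15* in which an ISRE match lies wholly upstream of the start, with the matches in capitals, 5′ to 3′ on the strand of the gene.
*Ifit1* (chr19:34640773-34640825, plus strand): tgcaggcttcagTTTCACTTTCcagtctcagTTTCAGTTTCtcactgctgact
*Ifit3* (chr19:34583361-34583428, plus strand): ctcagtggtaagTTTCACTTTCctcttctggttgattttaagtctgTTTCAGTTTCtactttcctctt
*Oas1a* (chr5:120907526-120907557, minus strand): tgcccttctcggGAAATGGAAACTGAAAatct
*Rsad2* (chr12:26456551-26456584, minus strand): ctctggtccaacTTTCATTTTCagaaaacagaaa
*Bst2* (chr8:71537575-71537614, minus strand): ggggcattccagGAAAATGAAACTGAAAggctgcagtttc
*Isg15* (chr4:156200863-156200908, minus strand): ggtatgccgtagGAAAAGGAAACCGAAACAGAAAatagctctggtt
In *Isg15*, 3 overlapping matches follow each other at 78, 72, and 66 bases before the start, and *Oas1a* and *Bst2* each hold an overlapping pair.

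By read depth, the libraries were similar. The recovered reads on genes, inferred from the gaps that rounding leaves in the normalized values, numbered between 4512272 and 5593518 per library in LNA Control and between 4789066 and 5301192 in LNA Malat1. LNA Control replicates differed from each other by more than counting error, most for replicates 1 and 3 (chi-square of 4.18 per gene, where counting error alone gives about 1). Among the LNA Malat1 replicates, 1 and 3 differed by less than sampling noise over all genes compared (0.949 per gene), although not in the most abundant genes (1.10 per gene). Replicates 1 and 2 (1.01 per gene) and 2 and 3 (1.16 per gene) were also near counting error, but less so in the most abundant genes (1.665 and 2.021). How far replicate 2 is independent of the other LNA Malat1 libraries is therefore not known. Replicates 1 and 3 enter the LNA Malat1 mean ± SD as a single sample (n = 2), whereas the test across genes used all 6 libraries. The targeted RNA, *Malat1*, had normalized counts of 5051, 5197, and 4369 under LNA Control against 2833, 2792, and 2732 under LNA Malat1 (replicates 1, 2, and 3, the order of every list of library values here). The log2 fold change, LNA Malat1 minus LNA Control and from here on also called the log2 difference, was -0.80 with an SE of 0.07 (adjusted p = 7.5e-06 by limma). Of the 11 cardiomyocyte markers checked, 10 have a row and 8 reached a mean of 5, *Tnnt2*, *Ryr2*, *Gata4*, and *Nkx2-5* among them. Both myosin heavy chains were near 0, *Myh6* with 7, 0, and 7 under LNA Control against 4, 1, and 4 under LNA Malat1 and *Myh7* with 1, 0, and 1 against 4, 2, and 2. The atrial light chain *Myl7* was low, with a mean of 24.8 over the 6 libraries, and *Nppa*, the atrial natriuretic peptide, is not analysed here.

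All members but *Zbp1* were expressed above the limit for testing. With the mean normalized count divided by the exonic length in kilobases, the median member stood at the 85.9th percentile of all genes tested. *B2m*, the invariant chain of MHC class I, was highest with a level of 684 per kilobase. *H2-D1*, a classical MHC class I heavy chain, followed at 347 and *Bst2*, which tethers budding virions, at 334 per kilobase. The lowest tested member was *Mx1*, a dynamin-like GTPase, at 3.21 per kilobase. *Zbp1* lay below the limit, with normalized counts of 1, 3, and 1 under LNA Control against 3, 6, and 3 under LNA Malat1. The members together accounted for 0.515%, 0.532%, and 0.484% of the summed normalized counts in LNA Control and for 0.549%, 0.552%, and 0.537% in LNA Malat1. All 3 LNA Malat1 shares lay above the LNA Control shares. The summed normalized counts of the members themselves overlapped, with 25257, 26206, and 23376 under LNA Control against 26160, 26305, and 25565 under LNA Malat1, and the library sums that divide them were lower in LNA Malat1 (4758777 to 4762957) than in LNA Control (4831007 to 4921406). In bulk RNA, fewer cells of a type and less RNA per cell cannot be told apart. LNA Control replicate 3 was the lowest of the LNA Control libraries for 32 of the 46 members and the lowest of all 6 for 28, so counts are also given without it.

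**Figure D1:**
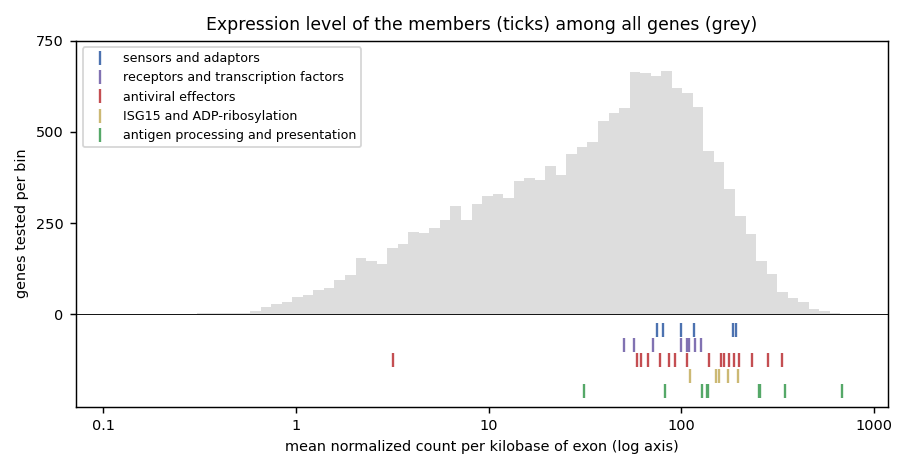
Mean normalized count per kilobase of exon over the 6 libraries (log axis). The grey histogram gives the number of genes tested per bin and each colored tick below it is 1 member, in a row for its role; *B2m* is the rightmost tick at 684 and *Mx1* the leftmost at 3.21.

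The first question was whether depletion of Malat1 moved the members as a group. No member was called upregulated and none downregulated, where a call needs 1.5-fold or more and an adjusted p of 0.05 or less (limma on log2(normalized count + 1), Benjamini-Hochberg adjustment over all 15650 genes tested). In the same test, 8.0% of all genes were called upregulated and 2.92% downregulated. At an unadjusted p below 0.05, 17 of the 45 members passed (37.8%), compared with 39.8% of all genes and 43.5% of those with a mean of at least 50, and limma's voom on the recovered reads also called 0. Without the fold minimum, 11 members were higher in LNA Malat1 and 4 were lower (24.4% and 8.89% of the 45), compared with 14.3% and 14.0% of all genes. Of the 10490 genes whose mean reached 50, a level that all tested members but *Mx1* reached, 3.05% were called upregulated, 3.33% downregulated, and 6.38% in either direction (10.9% of all genes), and without the fold minimum 12.2% were higher and 19.7% lower. In total 15 members passed (33.3%), compared with 28.3% of all genes and 31.9% of those with a mean of at least 50. Without LNA Control replicate 3, 11 members passed, 7 of them higher. The count was 6 without LNA Malat1 replicate 1, 6 without replicate 3, and 7 without replicate 2. Counting LNA Malat1 replicates 1 and 3 as a single sample also left 6. After quantile normalization, 15 members were higher and 1 was lower. The shares of all genes passing in these alternative fits are not given here, and fits with fewer samples have fewer degrees of freedom. These counts therefore do not compare the members with other genes.

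The differences were small. The median log2 fold change of the 45 members was 0.05, compared with 0.02 for all genes tested and -0.03 for the 10490 whose mean reached 50, and the lowest and highest values were -0.26 (*Ifit2*) and 0.64 (*Mx1*). The median size of the change, ignoring its sign, was 0.10 for the members and 0.19 for all genes (0.14 for genes with a mean of at least 50). For 42 members (93.3%), the 95% interval of the fold change lay wholly within 1.5-fold in either direction, as it did for 58.9% of all genes and 84.1% of those with a mean of at least 50. The 3 members whose interval reached beyond 1.5-fold were *Mx1*, *Ifi44*, and *Psmb9*. By library, all LNA Malat1 values lay above all LNA Control values for 13 members (28.9%) and below them for 5 (11.1%), so that 40.0% of the 45 did not overlap. Of all genes, 41.3% did not overlap (20.5% above and 20.8% below), and of those with a mean of at least 50, 45.7% (17.2% above and 28.5% below).

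**Figure D2:**
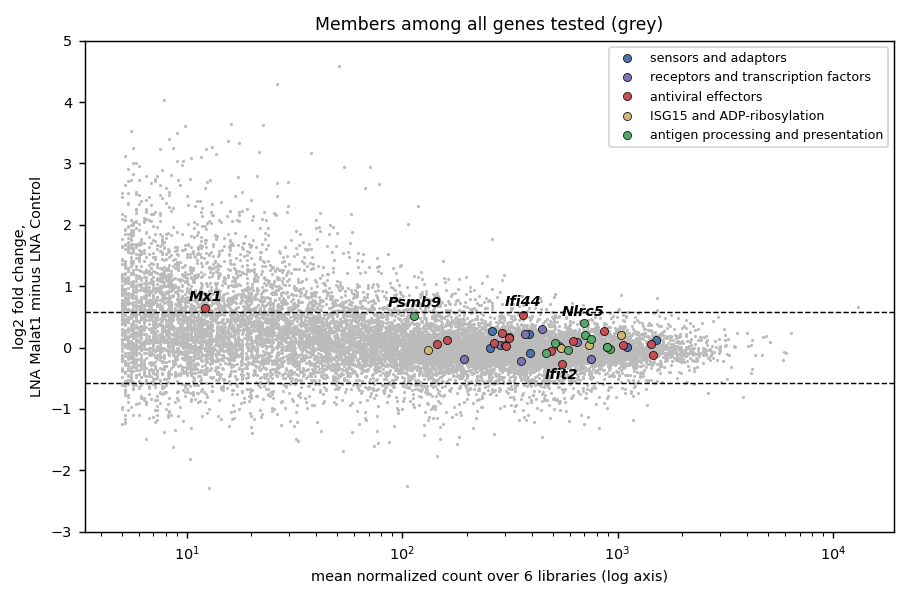
Log2 fold change, LNA Malat1 minus LNA Control, against the mean normalized count over the 6 libraries (log axis). Grey points are all genes tested, colored points the 45 tested members by role, and dashed lines mark a 1.5-fold change; the members lie near 0, between -0.26 and 0.64, and only *Mx1* falls outside the dashed lines.

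Among the sensors and adaptors, 2 of 6 tested members were higher and 0 lower (33.3% and 0.0%, compared with 14.3% and 14.0% of all genes). *Dhx58* encodes LGP2, the RIG-I-like receptor that lacks signaling domains and tunes its relatives. Its normalized counts were 254, 256, and 204 under LNA Control against 276, 301, and 282 under LNA Malat1, a difference of 0.27 log2 units with an SE of 0.09 (adjusted p = 0.033 by limma). *Tlr3*, the endosomal receptor for double-stranded RNA, had 323, 359, and 391 under LNA Control against 393, 434, and 426 under LNA Malat1, a difference of 0.23 log2 units with an SE of 0.07 (adjusted p = 0.035 by limma). In both genes every LNA Malat1 library lay above every LNA Control library, although for *Tlr3* the nearest libraries stood at 391 and 393. *Dhx58* no longer passed the adjusted p without LNA Control replicate 3 or any 1 LNA Malat1 replicate. *Tlr3* no longer passed without LNA Control replicates 1 or 2 or any 1 LNA Malat1 replicate (adjusted p up to 0.13 for either gene). Without LNA Malat1 replicate 1 the miss was marginal, as the adjusted p of *Tlr3* was 0.05 after rounding. *Dhx58* also shares 2637 bases of its span with the antisense gene *Dhx58os*, and the sources do not state whether counting used the strand.

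The other sensors and adaptors did not pass. *Ifih1*, which encodes the long double-stranded RNA sensor MDA5, had 1395, 1514, and 1440 under LNA Control against 1580, 1620, and 1517 under LNA Malat1. The groups did not overlap, but the nearest libraries were close (1514 and 1517), and the difference of 0.12 log2 units had an SE of 0.05 (adjusted p = 0.13 by limma). *Mavs*, the mitochondrial adaptor, lay lower in every LNA Malat1 library, with 418, 396, and 398 against 369, 383, and 384 (log2 fold change -0.09, limma adjusted p = 0.22). *Trim25*, a ubiquitin ligase linked to RIG-I signaling, overlapped between groups with 1165, 1118, and 1029 under LNA Control against 1096, 1092, and 1123 under LNA Malat1. *Myd88*, the adaptor of most Toll-like receptors, likewise overlapped with 263, 272, and 238 against 260, 248, and 263. The 95% intervals of their log2 fold changes ran from -0.12 to 0.12 for *Trim25* and from -0.15 to 0.15 for *Myd88*. *Myd88* shares 5478 bases of its span with *Slc22a14* on the same strand, and reads in a shared stretch may be missing from its counts.

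Both chains of the type I interferon receptor were lower in LNA Malat1. *Ifnar1* had normalized counts of 801, 847, and 769 under LNA Control against 716, 715, and 695 under LNA Malat1, a difference of -0.18 log2 units with an SE of 0.05 (adjusted p = 0.021 by limma). *Ifnar2* had 382, 379, and 388 under LNA Control against 351, 330, and 306 under LNA Malat1, a difference of -0.22 log2 units with an SE of 0.06 (adjusted p = 0.019 by limma). The groups did not overlap in either gene, and LNA Malat1 reached 88.0% and 85.9% of LNA Control. The genes lie on the same stretch of chromosome 16, *Ifnar2* at chr16:91372783-91405589 and *Ifnar1* at chr16:91485238-91507441. After quantile normalization neither passed. Neither passed without LNA Control replicate 2, LNA Malat1 replicate 2, or LNA Malat1 replicate 3. *Ifnar1* also did not pass without LNA Malat1 replicate 1 (adjusted p up to 0.093 for *Ifnar1* and 0.092 for *Ifnar2*).

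Among the transcription factors, *Irf7* and *Irf2* were higher and *Irf3* was lower. *Irf7*, the interferon-inducible factor that amplifies the type I response, had 425, 439, and 341 under LNA Control against 518, 511, and 447 under LNA Malat1 (log2 difference 0.30 with an SE of 0.09, adjusted p = 0.027 by limma). *Irf2*, mostly a repressor that competes with IRF1 for the same sites, had 331, 336, and 363 under LNA Control against 428, 375, and 394 under LNA Malat1 (log2 difference 0.22 with an SE of 0.07, adjusted p = 0.027 by limma). *Irf3*, the constitutively expressed factor phosphorylated downstream of MAVS, had 207, 206, and 209 under LNA Control against 178, 182, and 185 under LNA Malat1 (log2 difference -0.19 with an SE of 0.07, adjusted p = 0.049 by limma). All 3 genes separated the groups without overlap. *Irf3* sat at the threshold of the adjusted p. It passed in 4 of 16 alternative fits and in none of the 6 that left out a library (adjusted p between 0.077 and 0.14 in those). *Irf7* no longer passed without LNA Control replicate 3 or LNA Malat1 replicates 1 or 2 (adjusted p up to 0.13). The same held for *Irf2* without LNA Control replicate 2 or LNA Malat1 replicates 1 or 3 (adjusted p up to 0.14).

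The subunits of ISGF3 in the list and *Irf1* overlapped between the groups. *Stat2* had 680, 620, and 577 under LNA Control against 693, 651, and 652 under LNA Malat1 (log2 fold change 0.09, 95% interval -0.05 to 0.23, limma adjusted p = 0.31). *Irf9*, the DNA-binding subunit, had 551, 573, and 476 against 562, 515, and 539 (log2 fold change 0.02, 95% interval -0.13 to 0.17, limma adjusted p = 0.87). *Irf1*, an activator induced by interferon gamma, had 261, 308, and 272 against 267, 291, and 302 (log2 fold change 0.03, 95% interval -0.13 to 0.20, limma adjusted p = 0.77). In total 2 of the 8 receptors and transcription factors were higher and 3 lower (25.0% and 37.5%, compared with 14.3% and 14.0% of all genes).

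**Figure D3:**
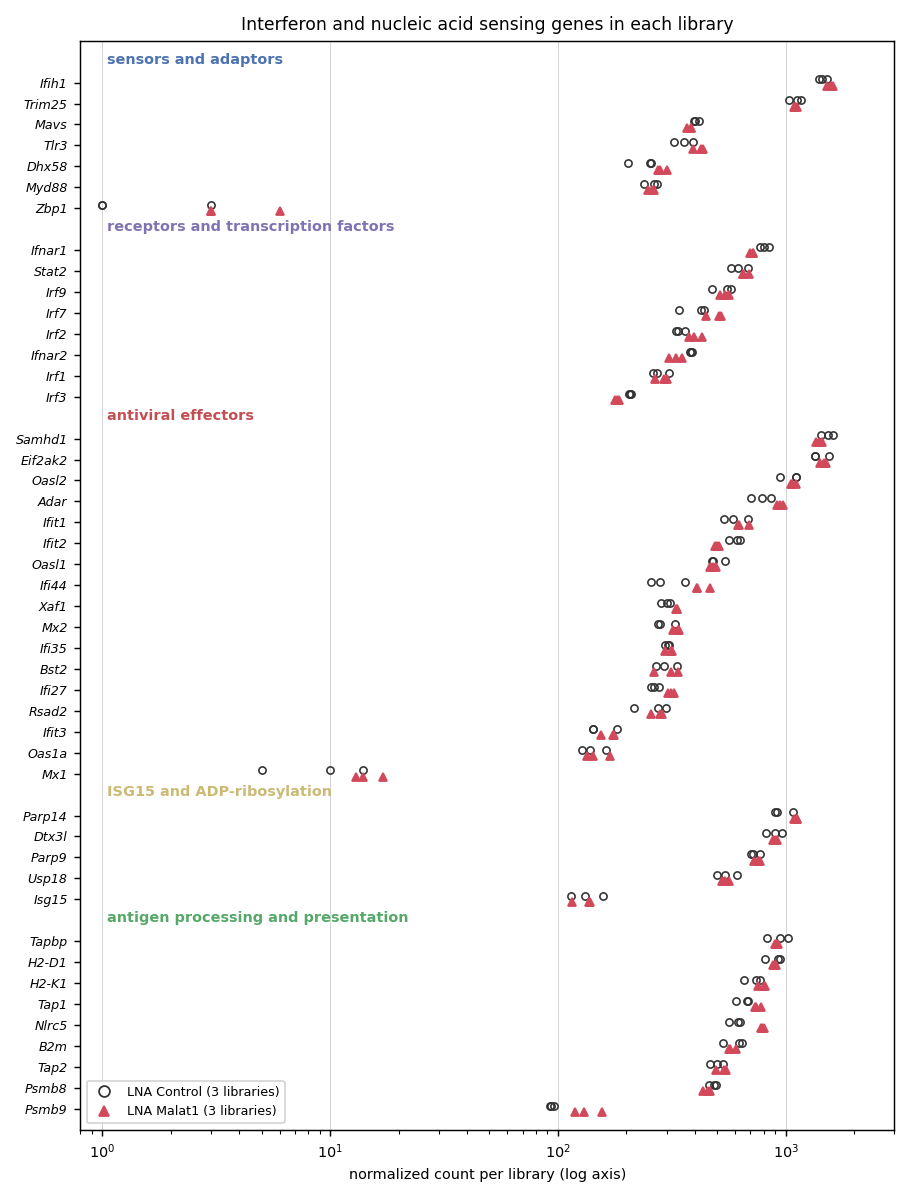
Normalized count (log axis) of each of the 46 members in each library, grouped by role and ordered by level within a role. Open circles are the 3 LNA Control libraries and red triangles the 3 LNA Malat1 libraries; in *Psmb9*, *Nlrc5*, and *Ifi44* the triangles lie to the right of every circle, in *Ifit2* to the left.

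Of the 17 antiviral effectors, 3 were higher, 1 was lower, and 13 did not pass. The shares of 17.6% higher and 5.88% lower compare with 14.3% and 14.0% of all genes. *Ifi44*, an interferon-induced cytoplasmic protein, had normalized counts of 256, 362, and 280 under LNA Control against 408, 463, and 409 under LNA Malat1. Its mean was 299 ± 55.6 (SD, n = 3) under LNA Control against 436 ± 38.5 (SD, n = 2) under LNA Malat1, and its log2 fold change was 0.52 (SE 0.11, 95% interval 0.29 to 0.75, limma adjusted p = 0.0028). The lowest LNA Malat1 library exceeded the highest LNA Control library. Without LNA Control replicate 2, the highest of its group, the log2 fold change was 0.67, which is above 1.5-fold, and *Ifi44* was then called upregulated.

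*Adar*, which deaminates adenosine in double-stranded RNA, and *Ifi27*, an interferon-inducible membrane protein, were higher by smaller amounts. *Adar* had 866, 783, and 703 under LNA Control against 942, 920, and 977 under LNA Malat1 (log2 difference 0.28 with an SE of 0.07, adjusted p = 0.011 by limma). *Ifi27* had 278, 265, and 256 under LNA Control against 323, 314, and 305 under LNA Malat1 (log2 difference 0.24 with an SE of 0.06, adjusted p = 0.012 by limma). Neither overlapped between groups, and each failed to pass in 1 of the 6 fits that left out a library. These were *Adar* without LNA Malat1 replicate 3 (adjusted p = 0.062) and *Ifi27* without LNA Malat1 replicate 1 (adjusted p = 0.061). *Adar* also did not pass with LNA Malat1 replicates 1 and 3 as 1 sample (adjusted p = 0.056). *Adar* overlaps *Chrnb2* on the opposite strand, and reads assigned to both genes were left out by the authors.

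*Ifit2* was the effector that was lower. The IFIT proteins, built of tetratricopeptide repeats, restrict translation and bind viral RNA. *Ifit2* had normalized counts of 562, 631, and 613 under LNA Control against 499, 511, and 491 under LNA Malat1, with means of 602 ± 35.8 (SD, n = 3) and 503 ± 11.3 (SD, n = 2). Its log2 fold change was -0.26 (SE 0.06, 95% interval -0.39 to -0.14, limma adjusted p = 0.0042), and all LNA Malat1 libraries lay below all LNA Control libraries. Its neighbors on chromosome 19 did not pass. *Ifit1* had a log2 fold change of 0.10 (95% interval -0.07 to 0.28) and *Ifit3* of 0.13 (95% interval -0.10 to 0.35), and both overlapped between the groups. The 3 genes lie on the plus strand between the start of *Ifit2* at 34550694 and the end of *Ifit1* at 34650009. The upstream windows of *Ifit1* and *Ifit3*, printed earlier, hold 2 ISRE matches each, and that of *Ifit2* holds none and 1 GAS match. *Ifit3* has a close paralog, and reads aligning to several places were left out of the counts.

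Apart from *Mx1*, the 10 remaining effectors had log2 fold changes between -0.12 and 0.18. *Mx2* (0.18, limma adjusted p = 0.082) and *Xaf1* (0.15, limma adjusted p = 0.071), an antagonist of apoptosis inhibitors, were nearest to the threshold. *Rsad2* (0.07), which encodes viperin, *Oas1a* (0.06), *Oasl2* (0.03), and *Oasl1* (-0.05) of the oligoadenylate synthetase family, and *Eif2ak2* (0.05), which encodes the kinase PKR, all overlapped between groups. So did *Bst2* (0.04), *Ifi35* (0.03), and *Samhd1* (-0.12), a dNTP hydrolase. *Mx1* had the largest log2 fold change of the members, 0.64, but the fewest counts of those tested, with 5, 14, and 10 under LNA Control against 17, 13, and 14 under LNA Malat1. These values overlapped, and the 95% interval ran from -0.12 to 1.41 (limma adjusted p = 0.20).

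**Figure D4:**
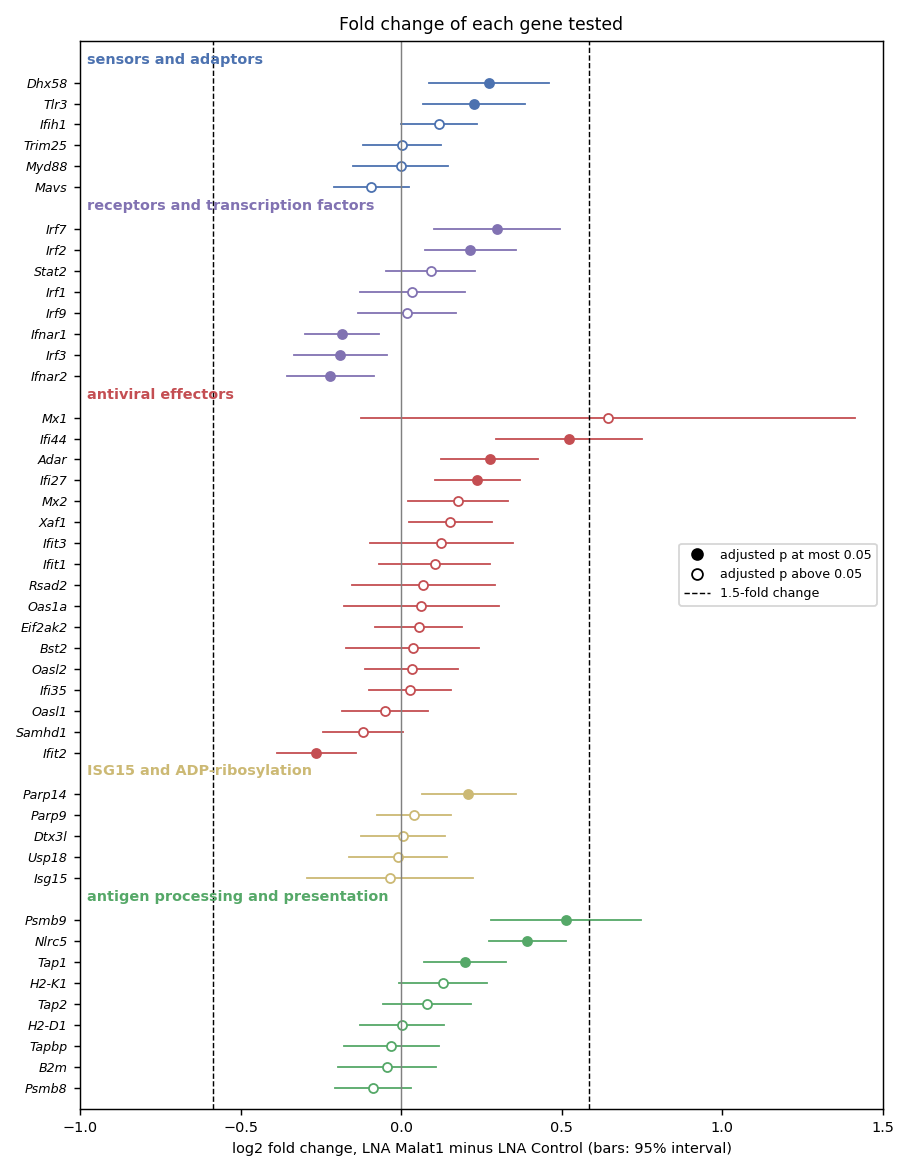
Log2 fold change, LNA Malat1 minus LNA Control, of the 45 tested members with 95% intervals from the limma fit, grouped by role. Filled points have an adjusted p of at most 0.05, open points do not, and dashed lines mark a 1.5-fold change; the intervals of *Mx1*, *Ifi44*, and *Psmb9* cross the upper line.

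In the group of *Isg15* and the ADP-ribosylation genes, 1 of 5 members was higher and 0 lower. Of all genes, 14.3% were higher and 14.0% lower. *Parp14*, a mono-ADP-ribosyltransferase, had normalized counts of 912, 1078, and 897 under LNA Control against 1086, 1117, and 1124 under LNA Malat1 (log2 difference 0.21 with an SE of 0.07, adjusted p = 0.036 by limma). The nearest libraries of the groups stood at 1078 and 1086. Of the 6 fits that left out a library, *Parp14* passed only in that without LNA Control replicate 2 (adjusted p up to 0.13 in the others). *Isg15*, the ubiquitin-like modifier whose promoter stretch carries the 3 ISRE matches, had 131, 157, and 114 under LNA Control against 138, 137, and 115 under LNA Malat1. These values overlapped, and the log2 fold change was -0.04 (95% interval -0.29 to 0.22, limma adjusted p = 0.85). *Usp18*, the protease that removes ISG15 (-0.01), and the partners *Parp9* (0.04) and *Dtx3l* (0.01), which form a complex of an inactive ADP-ribosyltransferase and a ubiquitin ligase, also overlapped between groups.

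Among the genes of antigen processing and presentation, 3 of 9 were higher and 0 lower (33.3% and 0.0%, compared with 14.3% and 14.0% of all genes). *Nlrc5*, the transactivator of MHC class I genes, had normalized counts of 629, 616, and 562 under LNA Control against 805, 781, and 784 under LNA Malat1. Its mean was 602 ± 35.5 (SD, n = 3) under LNA Control against 788 ± 9.55 (SD, n = 2) under LNA Malat1, and its log2 fold change was 0.39 (SE 0.06, 95% interval 0.27 to 0.51, limma adjusted p = 0.00025), the smallest adjusted p of the 45 members. The lowest LNA Malat1 library (781) exceeded the highest LNA Control library (629). *Psmb9*, an immunoproteasome subunit, had 93, 96, and 92 under LNA Control against 130, 156, and 119 under LNA Malat1, with means of 93.7 ± 2.08 (SD, n = 3) and 140 ± 22.3 (SD, n = 2). Its log2 fold change was 0.51 (SE 0.11, 95% interval 0.28 to 0.75, limma adjusted p = 0.0037), and the groups did not overlap. Without LNA Malat1 replicate 3 its log2 fold change was 0.60, and *Psmb9* was then called upregulated.

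*Tap1*, a subunit of the peptide transporter that lies head to head with *Psmb9* on chromosome 17, had 675, 684, and 606 under LNA Control against 736, 779, and 737 under LNA Malat1 (log2 difference 0.20 with an SE of 0.06, adjusted p = 0.024 by limma). The annotated spans of *Psmb9* (chr17:34181987-34187764, minus strand) and *Tap1* (chr17:34187553-34197225, plus strand) overlap by 212 bases. *Tap1* no longer passed without LNA Control replicate 3 or any 1 LNA Malat1 replicate (adjusted p up to 0.11). The other immunoproteasome subunit of the list, *Psmb8* (-0.09), the second transporter subunit *Tap2* (0.08), and the peptide-loading protein *Tapbp* (-0.03) did not pass. Neither did the class I molecules *H2-K1* (0.13), *H2-D1* (0.00), and *B2m* (-0.05), whose 95% intervals all lay between -0.20 and 0.27. These 3 genes overlapped between groups, although *H2-K1* passed after quantile normalization (adjusted p = 0.028 by limma) and without LNA Control replicate 1 (adjusted p = 0.034 by limma). *H2-Q4*, a class I gene of the further pathway list that was picked after its values were seen, had 156, 153, and 155 under LNA Control against 212, 188, and 192 under LNA Malat1 (log2 difference 0.35 with an SE of 0.07, adjusted p = 0.0044 by limma). The H2 genes have close paralogs, so reads aligning to several of them are missing from their counts. *B2m* shares 5398 bases of its span with *Patl2* on the opposite strand and *Tapbp* 3422 with *Zbtb22* on the same strand. Reads in these stretches may be missing as well.

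Of the 15 members at an adjusted p of at most 0.05, 4 passed in all 16 alternative fits, namely *Ifi44*, *Ifit2*, *Nlrc5*, and *Psmb9*. With LNA Malat1 replicates 1 and 3 as 1 sample these 4 passed along with *Ifi27* and *Ifnar2*. All 15 kept their direction in every fit. Some of the 15 overlap another annotated gene, among them *Irf3* (*Bcl2l12*), *Irf7* (*Phrf1*), *Tlr3* (*Gm45542*), *Parp14* (*Gm49730*), and *Nlrc5* (*9330175E14Rik*), and reads in a shared stretch may be missing from their counts. Of the 11 with a promoter window, 1 (*Irf2*) held an ISRE match, compared with 11 of the 26 members with a window that did not pass or were not tested. A GAS match was held by 5 of the 11 (*Adar*, *Irf2*, *Ifnar1*, *Ifnar2*, and *Ifit2*) and by 8 of the 26. These shares are a description and no test was made of them.

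**Figure D5:**
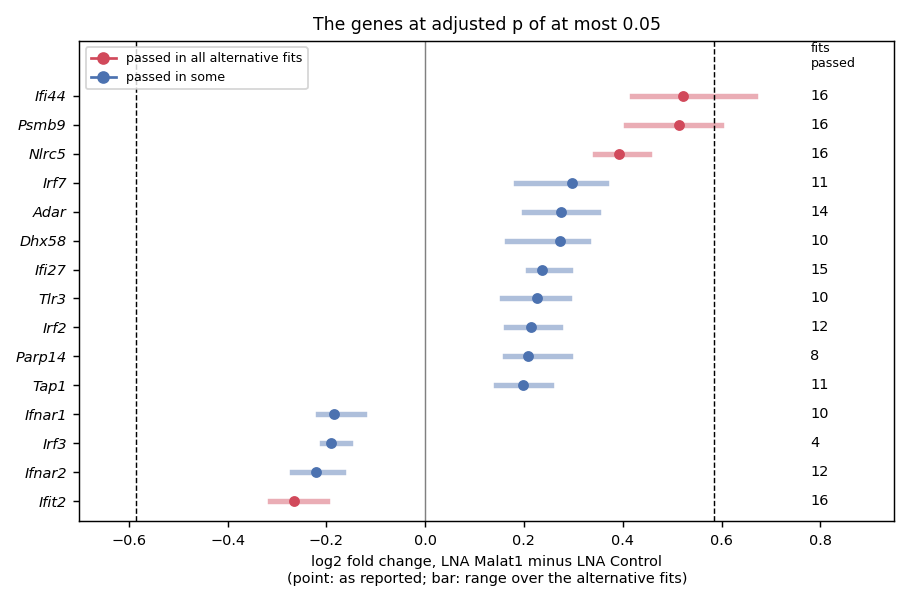
Log2 fold change of the 15 members at an adjusted p of at most 0.05, with the value as reported (point), its range over the 16 alternative fits (bar), and the number of those fits in which it passed (right). These numbers were counted on rounded adjusted p values, so that of *Tlr3* includes the fit without LNA Malat1 replicate 1 (0.05 after rounding). Red marks *Ifi44*, *Psmb9*, *Nlrc5*, and *Ifit2*, which passed in all 16, and *Irf3* passed in 4.

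The rest of the pathway was read from 82 further genes with a row, 79 of which were tested. Of these, 3 were called upregulated and 1 downregulated, and at an adjusted p of at most 0.05 without the fold minimum 9 were higher and 6 lower (19.0% in total, compared with 28.3% of all genes). *Ddx60*, a helicase linked to RIG-I, had normalized counts of 153, 184, and 201 under LNA Control against 320, 355, and 361 under LNA Malat1 (log2 difference 0.95 with an SE of 0.09, adjusted p = 1.4e-05 by limma). Its upstream stretch holds 2 ISRE matches. *Ddx60* was the only gene of this further list whose stretch was extracted, and matches in the others are not reported here. A link between the matches and the difference was not tested.
*Ddx60* (chr8:61928022-61928086, plus strand): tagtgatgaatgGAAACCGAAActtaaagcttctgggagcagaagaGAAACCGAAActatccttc
*Oas2*, an oligoadenylate synthetase, was called at low counts, with 16, 16, and 10 under LNA Control against 31, 33, and 44 under LNA Malat1 (log2 difference 1.31 with an SE of 0.25, adjusted p = 0.0019 by limma). *Ifnlr1*, a chain of the type III interferon receptor, had 16, 22, and 15 against 35, 31, and 42 (log2 difference 1.00 with an SE of 0.22, adjusted p = 0.0054 by limma). *Irf2bp2*, a corepressor that binds IRF2, was called downregulated with 1206, 1160, and 1040 under LNA Control against 735, 694, and 736 under LNA Malat1 (log2 difference -0.65 with an SE of 0.06, adjusted p = 1e-05 by limma). None of these 4 genes overlapped between groups, which was also so for 31.6% of the 79 and 41.3% of all genes.

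Of the signaling genes described here that link the members, *Tyk2* passed the test and *Ddx58* and *Jak1* did not. *Ddx58*, which encodes RIG-I, had 1414, 1498, and 1236 under LNA Control against 1461, 1482, and 1461 under LNA Malat1 (log2 fold change 0.09, limma adjusted p = 0.34). *Jak1* had 1311, 1343, and 1216 against 1181, 1276, and 1205 (log2 fold change -0.08, limma adjusted p = 0.32). Both genes overlapped between groups. *Tyk2*, the kinase bound to IFNAR1, was lower with 139, 139, and 168 under LNA Control against 110, 111, and 90 under LNA Malat1 (log2 difference -0.52 with an SE of 0.11, adjusted p = 0.0043 by limma), just under the fold minimum. The 9 interferon ligand genes of the list, *Ifnb1* and *Ifng* among them, are not analysed here.

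Markers of other cell types were measured beside these results. Of 9 leukocyte and macrophage markers, 3 have a row (*Cd68*, *Csf1r*, and *Cd3e*), with none at 0 in every library. Their summed normalized counts were 35 to 37 in LNA Control and 59 to 90 in LNA Malat1. At low counts, *Cd68* (log2 difference 0.79, adjusted p = 0.023 by limma) and *Csf1r* (1.19, adjusted p = 0.013 by limma) were called upregulated. The summed endothelial markers (3 of 5 with a row) were 22 to 31 and 36 to 37. The fibroblast markers (4 of 6 with a row, mostly *Col1a1* and *Col3a1*) summed to 4329 to 5079 and 3845 to 4017, and the cardiomyocyte markers to 4929 to 5216 and 4797 to 4935. *Col3a1* was lower (-0.33, adjusted p = 0.0014 by limma), and the other fibroblast and endothelial markers tested did not pass. The cardiomyocyte sum hides opposite moves. *Actn2* was called upregulated (log2 difference 0.71, adjusted p = 0.0011 by limma) and *Tnnt2* was higher (0.15, adjusted p = 0.034 by limma). *Gata4* was lower (-0.21, adjusted p = 0.0079 by limma), and the other 5 tested did not pass. The part of these shifts in the values of the members was not tested.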

How the data were processed

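RNA from 3 LNA Control and 3 LNA Malat1 libraries of HL-1 cells was prepared with a stranded total RNA kit. By the methods and the submitters' processing notes, the authors used Trimmomatic 0.39 for trimming, STAR 2.7.7a for alignment (mm10, Ensembl release 101), featureCounts 1.6.5 for counting, and DESeq2 1.30.0 for normalization. Reads that hit more than 1 gene or place were dropped. Whether counting used the strand is not given in the sources used here. What the authors deposited is a score, namely counts divided by a library factor and rounded, called normalized counts here. As they are not raw counts, no count model was used, and the reads recovered from them are approximate and cover counting error only.

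Genes whose mean was at least 5 entered limma 3.58.1 (R 4.3.3) after adding 1 and taking log2, with lmFit and trended eBayes, two-sided, and Benjamini-Hochberg adjustment. Calls used the study's thresholds, 1.5-fold and an adjusted p of 0.05. Adding 1 understates changes of low genes. With 3 libraries a side, the smallest exact permutation p is 0.1, so no single gene was permuted. Gene lengths were taken from GENCODE M21 and promoter windows from RefSeq. Overlaps were taken from the deposited gene positions and cover only genes with a row. The members and lists were chosen with earlier results of these data known. Library values are printed for members that passed the adjusted p, for sensors, receptors, and transcription factors, and for called genes of the rest of the pathway with *Ddx58*, *Jak1*, and *Tyk2*, and 1 further gene of this rule is not reported here. The values printed for *Isg15*, *Mx1*, and *H2-Q4* and the ratios between neighbors were chosen after seeing the data. Alternatives were a block on the replicate number, other pseudocounts (0.1 and 5), scalings (median-of-ratios, quantile, equal totals), filters (none, or 50), and fold minimums, the omission of each library, and LNA Malat1 replicates 1 and 3 merged. Voom weights on the recovered reads were added after seeing the data.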

Additional observations from a re-analysis of the deposited data

How the results depend on the processing

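Among the 719 fold changes of members refitted under 16 alternatives, 607 kept their direction and side of the threshold, 60 lost the adjusted p of 0.05, 10 gained it, and 42 changed sign. The count of 15 members at an adjusted p of at most 0.05 (11 higher, 4 lower) fell to 6 (4 higher, 2 lower) with LNA Malat1 replicates 1 and 3 as 1 sample, and ranged from 6 to 13 (4 to 10 higher, 1 to 4 lower) with each library left out, being lowest without LNA Malat1 replicates 1 or 3 (6 each) and 7 without replicate 2. Fits with fewer samples have fewer degrees of freedom, and the share of all genes passing in each alternative fit is not given here. Without a filter on low values 7 members were higher, and after quantile normalization 1 was lower. Calls of members stayed at 0 in both directions except 1 upregulated without LNA Control replicate 2 (*Ifi44*) and 1 without LNA Malat1 replicate 3 (*Psmb9*), a range of 0 to 1. With no fold change minimum the calls were 11 upregulated and 4 downregulated by construction.

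The sign changes fell on 15 members that did not pass, with adjusted p values of at least 0.32, so their directions are not determined. With median-of-ratios scaling, log2 fold changes became -0.013 (*Dtx3l*), -0.017 (*H2-D1*), -0.001 (*Irf9*), and -0.017 (*Trim25*). With quantile normalization they became 0.021 (*B2m*), 0.050 (*Myd88*), 0.019 (*Oasl1*), 0.021 (*Tapbp*), and 0.052 (*Usp18*), and with equal library totals 0.035 (*Myd88*), 0.005 (*Tapbp*), 0.026 (*Usp18*), and 0.00 (*Isg15*, from -0.04). With LNA Malat1 replicates 1 and 3 as 1 sample they became -0.002 (*Trim25*) and 0.004 (*Usp18*), and with voom 0.005 (*Myd88*). The other 26 came from leaving out a library, which gave ranges of -0.130 to 0.007 for *B2m*, -0.040 to 0.133 for *Bst2*, -0.053 to 0.060 for *Dtx3l*, -0.065 to 0.041 for *H2-D1*, -0.016 to 0.103 for *Irf1*, -0.062 to 0.072 for *Irf9*, -0.146 to 0.084 for *Isg15*, -0.058 to 0.038 for *Myd88*, -0.038 to 0.159 for *Oas1a*, -0.084 to 0.009 for *Oasl1*, -0.049 to 0.074 for *Oasl2*, -0.069 to 0.166 for *Rsad2*, -0.111 to 0.036 for *Tapbp*, -0.048 to 0.041 for *Trim25*, and -0.077 to 0.066 for *Usp18*.

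For the other pathway genes, the 3 upregulated and 1 downregulated became 9 and 6 with no fold minimum, 1 and 0 with at least 2-fold, and 0 and 0 in a test against a 1.5-fold change. With a mean of at least 50, 1 was upregulated, and after quantile normalization 3 were downregulated. With a library left out the downregulated numbered 1 to 2, and those higher at an adjusted p of at most 0.05 (9) numbered 5 to 13. Quantile normalization gave 14 and equal library totals 17 of these. The cause of these shifts was not tested.

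The median log2 fold change of the members lay between 0.02 and 0.10 in all alternatives. With the replicate number as a block, 14 members passed (11 higher, 3 lower). Samples sharing a number correlated at 0.0858, 0.182, and 0.083 over 10490 genes in their deviations from the group means, each best with its own number, a hint from the data and not from the design.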

Other observations

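Other genes of the pathway list also differed between the groups while staying under the 1.5-fold minimum, and were chosen after their values were seen. *Herc6*, the mouse ligase that attaches ISG15, had normalized counts of 588, 666, and 646 under LNA Control against 840, 808, and 830 under LNA Malat1 (log2 difference 0.38 with an SE of 0.06, adjusted p = 0.00034 by limma). *Gbp7*, an interferon-inducible GTPase, had 297, 378, and 418 against 451, 524, and 482 (log2 difference 0.43 with an SE of 0.10, adjusted p = 0.0086 by limma). *Pml*, the scaffold of nuclear bodies, had 705, 590, and 592 against 773, 726, and 717 (log2 difference 0.24 with an SE of 0.07, adjusted p = 0.024 by limma). In the other direction, *Traf3*, an adaptor between MAVS or TLR3 signaling and the kinases that activate IRF3, had 357, 331, and 297 under LNA Control against 240, 236, and 236 under LNA Malat1 (log2 difference -0.46 with an SE of 0.07, adjusted p = 0.00048 by limma). *Ticam1*, the adaptor of TLR3, had 201, 195, and 194 against 161, 156, and 166 (log2 difference -0.29 with an SE of 0.07, adjusted p = 0.0091 by limma). None of these 5 genes overlapped between groups, which was also so for 31.6% of the tested genes of the list and 41.3% of all genes. The list also held *Sting1* (-0.527, adjusted p = 0.031 by limma) and *Parp12* (-0.225, adjusted p = 0.012 by limma), both lower under the fold minimum. *Ikbke* (0.367, adjusted p = 0.027 by limma) and *Irak1* (0.179, adjusted p = 0.031 by limma) were higher under it.

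Ratios between neighboring genes, taken within each library and so independent of its scaling, were computed after the values were seen and are given without a test. The ratio of *Ifit2* to *Ifit1* was 0.961, 0.927, and 1.15 under LNA Control against 0.811, 0.743, and 0.786 under LNA Malat1, and that of *Ifit2* to *Ifit3* was 3.93, 3.47, and 4.32 against 3.22, 2.92, and 2.77. The ratio of *Psmb9* to *Psmb8* was 0.191, 0.194, and 0.2 under LNA Control against 0.28, 0.342, and 0.274 under LNA Malat1, and that of *Psmb9* to *Tap1* was 0.138, 0.14, and 0.152 against 0.177, 0.2, and 0.161. The ratio of *Tap1* to *Psmb8* was 1.39, 1.38, and 1.31 against 1.58, 1.71, and 1.70. In these 5 ratios the groups did not overlap. In the other ratio computed, that of *Mx1* to *Mx2*, they did, with 0.0178, 0.0429, and 0.0362 against 0.0506, 0.0382, and 0.0437. A ratio does not show which gene of a pair moved.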
